A study of Mus musculus with 9 samples.

Results

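Repeated carbon tetrachloride (CCl4) was compared with NC in the livers of WT mice by RNA sequencing, using 6 of the 9 libraries of the series. All 3 libraries labelled WT with CCl4 (replicates 11, 12 and 13) and all 3 labelled WT with NC (replicates 1, 2 and 3) entered the comparison, chosen by genotype and treatment and not by any measured value. By the series' design text, WT was taken to mean the Tgfbr2f/f mice, whose Tgfbr2 gene is floxed and, with no Cre named for them in the labels, not said to be deleted. The mice were C57BL/6 and 12 weeks old. CCl4 at 0.25 ml per kg, diluted in olive oil, was injected intraperitoneally 2 times a week for 4 weeks, and the time between the last dose and collection is not given in the sources used here. What NC stands for, and whether those mice received oil, is not stated either, so an effect of the injections or of the oil cannot be told apart from that of CCl4. The libraries of the 3 Tgfbr2HKO mice of the series entered only an alternative fit.

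CCl4 is a solvent that harms the liver through its own metabolism. The cytochrome P450 enzymes of hepatocytes, chiefly CYP2E1, turn it into a radical that attacks membranes, and the damage is densest around the central vein of the lobule. Surviving hepatocytes leave quiescence and divide, macrophages gather and clear dead cells, and stellate cells turn into matrix-making myofibroblasts, so that repeated doses scar the organ.

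The response covered most of the measured transcriptome. Of 13755 genes tested, 4242 (30.8%) were higher and 3578 (26.0%) lower with CCl4 in edgeR's quasi-likelihood test at a Benjamini-Hochberg adjusted p below 0.05, while the median log2 fold change was 0.03. Large rises outnumbered large falls, with 2098 genes past 4-fold upwards and 624 past 4-fold downwards. The libraries held 16447353 to 19636431 counts, with 15932 to 16384 genes detected under NC and 17149 to 17614 under CCl4. The first principal component held 86.7% of the variance and placed the NC libraries between -106.9 and -97.0 and the CCl4 libraries at 129.4, 98.8 and 73.5. Scaling mattered for small changes: with library totals in place of TMM factors the median log2 fold change became 0.36, with 5505 genes higher and 2251 lower. In limma on the authors' FPKM, which are scaled by library totals, 4019 genes were higher and 2084 lower of 10611 tested. All changes below are therefore relative to the TMM scale, on which the median gene hardly moved.

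**Figure D1:**
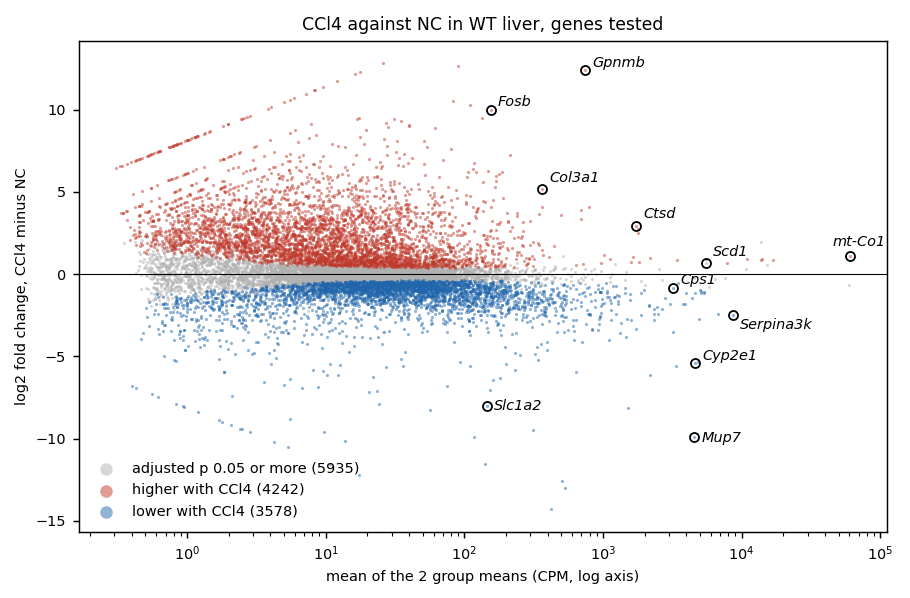
Log2 fold change (CCl4 minus NC, y axis) of each of the 13755 genes tested against the mean of its group means in CPM (x axis, log axis), coloured by the call of the edgeR test. More rises (4242 genes, red) than falls (3578 genes, blue) were called, and more rises (2098) than falls (624) passed 4-fold. Among the major urinary proteins the falls reach -14.3. The falls include many of the most abundant genes, and the parallel lines of points at the left edge are genes with no count in 1 group.

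Values per library are given as CPM (a gene's count relative to its TMM-scaled library size) in the order NC 1, 2 and 3 and then CCl4 11, 12 and 13, and a log2 fold change (log2FC, CCl4 minus NC) carries its standard error. Each group had n = 3. Gene lists are described by how many tested members were called, to be read against the 30.8% higher and 26.0% lower over all genes tested. A gene with reads in 1 group only passed the low-count filter through the group in which it was high, so these counts describe the tested members and not each gene of a list. Where 5 or fewer members of a list moved in a direction and are named for it, they were chosen after their values were seen. In whole tissue, fewer cells of a type and less RNA per cell of that type cannot be told apart.

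The labels give liver as the tissue and hepatocyte as the cell type. Hepatocyte genes were among the most abundant in every library, such as Ttr, the carrier of thyroid hormone and retinol-binding protein, at 5019, 6193 and 5144 CPM with NC and 1499, 2634 and 3157 CPM with CCl4. Markers of other liver cells were also present under NC, among them the Kupffer cell lectin Clec4f at 102, 79.5 and 90.4 CPM and the sinusoidal endothelial receptor Stab2 at 53.2, 50.4 and 78.8 CPM. The libraries thus held RNA of several liver cell types.

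The make-up of the RNA pool shifted. Genes of the mitochondrial genome took 10.5%, 12.0% and 9.13% of the counts under NC and 26.3%, 25.5% and 25.4% under CCl4. The groups did not overlap, and the difference of 15.2 percentage points had an exact two-sided permutation p of 0.1, the smallest that 3 against 3 libraries allow. Secreted plasma proteins (153 genes) went from 22.2%, 22.7% and 22.4% of counts with NC to 10.6%, 14.9% and 16.8% with CCl4. Drug-metabolising enzymes (208 genes) went from 6.72%, 6.9% and 6.94% of counts with NC to 2.09%, 2.94% and 3.39% with CCl4, and other metabolic enzymes (225 genes) from 8.6%, 9.42% and 9.3% of counts with NC to 3.47%, 4.6% and 5.14% with CCl4. In these 3 classes CCl4 11 stood lowest and every CCl4 library stood below every NC library. Lysosomal genes (43 genes) moved the other way, from 0.547%, 0.545% and 0.542% of counts with NC to 2.64%, 1.72% and 1.25% with CCl4, and so did genes of replication and mitosis (153 genes), from 0.139%, 0.138% and 0.162% of counts with NC to 0.429%, 0.47% and 0.50% with CCl4.

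**Figure D2:**
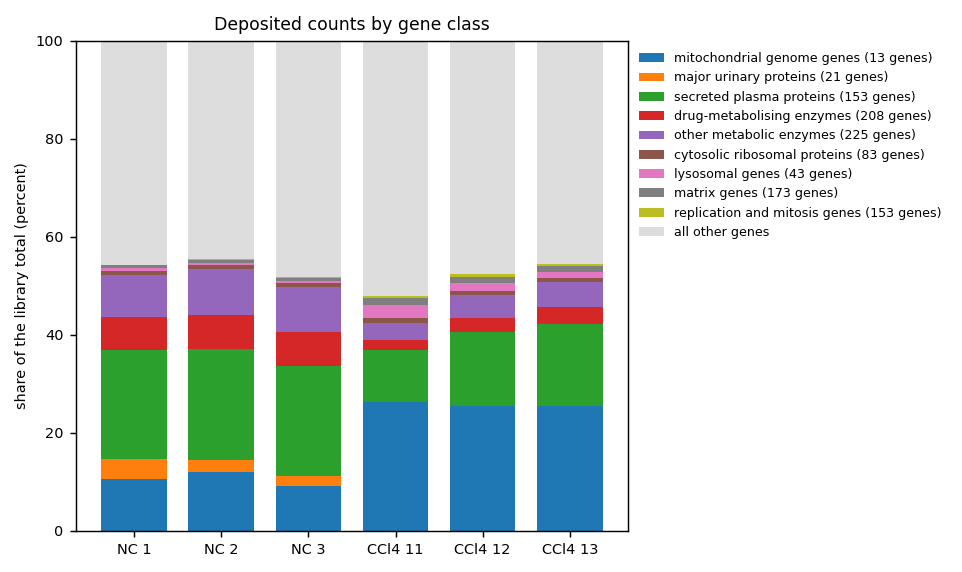
Share of each library's deposited counts (y axis, percent of the library total) in 9 gene classes and all other genes, as stacked bars for the 6 libraries. The mitochondrial part rises from 9.13% to 12.0% under NC to 25.4% to 26.3% under CCl4, and the major urinary proteins, 2.08% to 4.21% under NC, are too thin to see under CCl4.

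Most enzymes that handle foreign compounds fell. Among cytochromes P450 of families 1 to 3, 29 of 41 tested members fell and 5 rose (median log2FC -2.36), and their summed level went from 32394, 36019 and 31238 CPM with NC to 3565, 5383 and 6416 CPM with CCl4. Cyp3a11, a broad drug oxidase, stood at 9542, 8707 and 7687 CPM with NC and 922, 1316 and 1614 CPM with CCl4. Cyp2c29, which the constitutive androstane receptor controls, stood at 1463, 1738 and 1390.5 CPM with NC and 147, 139.8 and 142 CPM with CCl4. Both were several-fold lower in each CCl4 library than in any NC library (log2FC -2.75 ± 0.28 and -3.42 ± 0.18). Cyp1a2, a pericentral oxidase of caffeine and aromatic amines, did not follow them. It stood at 691, 821 and 868 CPM with NC and 464, 744 and 869 CPM with CCl4, groups that overlapped (log2FC -0.20 ± 0.25, not called). The 5 members called higher were Cyp1a1, Cyp1b1, Cyp2a4, Cyp2c55 and Cyp2s1, of which Cyp2a4, a steroid hydroxylase expressed more in female mouse liver, had the largest log2FC at 5.76 ± 0.68. The call of Cyp2c55 was lost without any 1 library other than CCl4 11, and that of Cyp2s1 without NC 3 or CCl4 11, at adjusted p of 0.058 to 0.124. Reads of the near-identical Cyp2a, Cyp2c, Cyp3a, Cyp4a, Ugt2b and Gst copies may have been divided between genes, so their separate values are uncertain.

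Conjugating and hydrolysing enzymes fell in several families. Sulfotransferases fell in 7 of 8 tested members and rose in 1, with Sult2a8, which sulfates bile acids in the mouse liver, at 1313, 1305 and 1133 CPM with NC and 20.6, 20.4 and 19 CPM with CCl4 (log2FC -5.97 ± 0.18). UDP-glucuronosyltransferases fell in 10 of 15 and carboxylesterases in 10 of 15, with 0 and 0 rising. Flavin monooxygenases gave no call in 4 tested members, and Fmo5, their most abundant member here by count, stood at 677, 649 and 992 CPM with NC and 336, 588 and 723 CPM with CCl4, groups that overlapped. Glutathione S-transferases had 7 higher, a share near that over all genes (30.8%), and 10 lower of 21, and 4 higher without NC 1, NC 2, NC 3, CCl4 12 or CCl4 13. Gsta1, an alpha-class transferase inducible by electrophiles, stood at 4.21, 3.45 and 3.92 CPM with NC and 48.6, 81.6 and 95.9 CPM with CCl4. Mgst1, the microsomal form, stood at 3872, 3922 and 3514 CPM with NC and 654, 907 and 1057 CPM with CCl4. Gsta1 was higher and Mgst1 lower in every CCl4 library (log2FC 4.28 ± 0.29 and -2.11 ± 0.23).

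The list of glutathione synthesis genes and targets of NRF2, a transcription factor of the electrophile response, moved both ways. Of 26 tested, 11 rose and 8 fell. Nqo1, a quinone reductase, stood at 7.61, 9.31 and 6.65 CPM with NC and 55.2, 78.9 and 89.6 CPM with CCl4. Hmox1, which breaks down haem and is also abundant in macrophages, stood at 38.2, 25.9 and 22.9 CPM with NC and 641, 317 and 183 CPM with CCl4. Both rose in every CCl4 library (log2FC 3.25 ± 0.24 and 3.71 ± 0.47), but Nqo1 was lowest and Hmox1 highest in CCl4 11. Abcc4, which exports conjugates back into the blood, rose too (log2FC 2.04 ± 0.20). Of the 8 that fell, 6 were enzymes that remove peroxide or superoxide. Cat, catalase, stood at 3301, 3740.0 and 3169 CPM with NC and 723, 943 and 1079 CPM with CCl4. Gpx1, a glutathione peroxidase, stood at 2475, 2170.0 and 646 CPM with NC and 561, 536 and 469 CPM with CCl4, where NC 3 came close to the CCl4 libraries without overlapping them (log2FC -1.90 ± 0.22 and -1.76 ± 0.44). Gclc, the catalytic subunit of glutathione synthesis, was not called (log2FC 0.30 ± 0.26), but passed at 0.54 without CCl4 11. Benjamini-Hochberg adjusted p from edgeR's quasi-likelihood test lay between 5.28e-05 and 0.0107 for the called genes given a log2FC here.

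Nitrogen handling fell. Amino acid breakdown fell in 48 of 51 tested genes with 0 higher (median log2FC -1.74). Tdo2, which opens the ring of tryptophan, stood at 2591, 2429.5 and 2188 CPM with NC and 244, 299 and 366 CPM with CCl4. Gnmt, which uses up S-adenosylmethionine, stood at 1451, 1757 and 1382 CPM with NC and 119, 157 and 174 CPM with CCl4. Mat1a, which makes that methyl donor in the adult liver, stood at 2628, 2569 and 2505 CPM with NC and 302, 405 and 465 CPM with CCl4. In all of them the 6 libraries fell into separate groups and the CCl4 values lay close together (log2FC -2.99 ± 0.22, -3.35 ± 0.22 and -2.72 ± 0.21). Gldc, which cleaves glycine, was 1 of the 3 not called and stood at 74.5, 92 and 79.4 CPM with NC and 69.8, 111 and 138 CPM with CCl4, overlapping groups (log2FC 0.37 ± 0.24, and called at 0.60 without CCl4 11). In the urea cycle and ammonia handling, 15 of 17 fell. Otc, the mitochondrial step that makes citrulline, stood at 633, 605 and 533 CPM with NC and 100.2, 131 and 153 CPM with CCl4 (log2FC -2.20 ± 0.20), and Glul, the glutamine synthetase of the cells next to the central vein, at 947, 1132 and 1075 CPM with NC and 218, 144 and 104 CPM with CCl4 (log2FC -2.76 ± 0.28). Within the CCl4 group Otc was lowest and Glul highest in CCl4 11. The 1 member that rose was Arg2, the mitochondrial arginase found outside hepatocytes, at 0.34, 0.353 and 0.382 CPM with NC and 14, 5.38 and 0.703 CPM with CCl4 (log2FC 4.19 ± 1.01), and it overlaps the more abundant Vti1b on the other strand. For the called genes given a log2FC here, the Benjamini-Hochberg adjusted p of edgeR's quasi-likelihood test ran from 3.58e-05 to 0.0084.

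Genes of glucose production fell, while glycolysis had more members higher than lower. In gluconeogenesis 7 of 8 fell, with Fbp1, fructose bisphosphatase, at 1073, 1225 and 1067 CPM with NC and 116, 178 and 191 CPM with CCl4 (log2FC -2.80 ± 0.23). G6pc, which releases free glucose, stood at 515, 1056 and 655 CPM with NC and 9.52, 49.8 and 67 CPM with CCl4, and CCl4 11 was the lowest library (log2FC -4.14 ± 0.68). Pck2, the mitochondrial form of PEP carboxykinase, was the 1 member that rose (log2FC 1.85 ± 0.23). In glycolysis 11 of 26 rose and 3 fell. Pkm, the pyruvate kinase of dividing and non-hepatocyte cells, stood at 18.1, 17.5 and 17.3 CPM with NC and 379, 238 and 153 CPM with CCl4. Hk2, a hexokinase that the adult hepatocyte hardly expresses, stood at 1.22, 1.34 and 1.69 CPM with NC and 66.6, 33.8 and 14.1 CPM with CCl4. Each was clear of NC in every CCl4 library and highest in CCl4 11 (log2FC 3.86 ± 0.33 and 4.73 ± 0.58), while the hepatocyte glucose transporter Slc2a2 fell (log2FC -2.15 ± 0.39). The called genes given a log2FC here had Benjamini-Hochberg adjusted p of 7.88e-05 to 0.00229 in edgeR's quasi-likelihood test.

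Genes of fat oxidation fell. Fatty acid oxidation and ketone making fell in 34 of 35 tested genes. Ppara, the nuclear receptor of the fasting response, stood at 108, 133 and 204 CPM with NC and 22.4, 29.8 and 34.3 CPM with CCl4. Every CCl4 library stood below every NC library (log2FC -2.36 ± 0.28). The 1 member higher was Cd36 (log2FC 2.63 ± 0.38), a fatty acid and lipoprotein receptor that macrophages and endothelium also carry. Fatty acid and triglyceride synthesis had 5 higher and 7 lower of 23 (10 higher without CCl4 11 and 3 without NC 2), shares near or below those over all genes (30.8% higher and 26.0% lower). Fasn, fatty acid synthase, stood at 163, 263 and 557 CPM with NC and 410.2, 758 and 942 CPM with CCl4, groups that overlapped, and was not called (log2FC 1.10 ± 0.47). It passed at 1.38 without CCl4 11 and at 1.69 without NC 3. Scd2, the desaturase that the adult liver hardly uses, stood at 5.77, 4.65 and 4.42 CPM with NC and 104, 137 and 156 CPM with CCl4, far above NC in each CCl4 library (log2FC 4.74 ± 0.22). Mlxipl, the carbohydrate sensor ChREBP, fell (log2FC -2.04 ± 0.29). Called genes given a log2FC here passed edgeR's quasi-likelihood test at Benjamini-Hochberg adjusted p of 1.85e-05 to 0.000785.

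Bile acid synthesis fell in 15 of 16 tested genes and none rose. Cyp8b1, the 12-alpha hydroxylase that sets cholic acid, stood at 218, 563 and 182 CPM with NC and 2.82, 4.47 and 3.68 CPM with CCl4. Cyp7b1, of the alternative pathway, stood at 498, 422 and 308 CPM with NC and 22.2, 35.6 and 39.5 CPM with CCl4. Every CCl4 library stood far below every NC library, with CCl4 11 lowest in both (log2FC -6.45 ± 0.53 and -3.66 ± 0.29). The basolateral importers fell, Slc10a1 at 517, 732 and 587 CPM with NC and 77.2, 122 and 147 CPM with CCl4 (log2FC -2.41 ± 0.27) and Slco1a1 at 618, 622 and 643 CPM with NC and 18.5, 22.4 and 23.2 CPM with CCl4 (log2FC -4.88 ± 0.17). The canalicular exporters differed: the bile salt pump Abcb11 fell (log2FC -1.57 ± 0.24), while Abcc2, which exports conjugated bilirubin, stood at 717, 883 and 1099 CPM with NC and 667, 904 and 1091 CPM with CCl4 and was not called (log2FC -0.02 ± 0.24). Abcb1b, a multidrug exporter induced in injured liver, rose (log2FC 2.21 ± 0.31). In edgeR's quasi-likelihood test, Benjamini-Hochberg adjusted p ran from 1.19e-05 to 0.00108 over the called genes given a log2FC here.

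The respiratory chain split by genome. Of its nuclear-encoded subunits, 32 of 36 tested in the complex I list and 34 of 36 in complexes III to V fell, and none rose. Ndufa4, which the complex I list holds although it is a subunit at the end of the chain, stood at 276, 236 and 188 CPM with NC and 53.3, 72.7 and 79.1 CPM with CCl4. Cox4i1, a core nuclear subunit of cytochrome oxidase, stood at 353, 327 and 291 CPM with NC and 121, 140.4 and 144 CPM with CCl4. The groups were separate for both (log2FC -1.77 ± 0.21 and -1.26 ± 0.15). Of the 13 genes that the mitochondrial genome encodes, 8 rose and none fell. mt-Co1, the catalytic subunit of the same oxidase, stood at 38707, 46648 and 31749 CPM with NC and 86098, 79861 and 80362 CPM with CCl4, and mt-Nd4, of complex I, at 9877, 10426 and 8842 CPM with NC and 19244, 17341 and 16615 CPM with CCl4. Here too the groups were separate, with NC 2 the highest NC library and the CCl4 libraries close together (log2FC 1.07 ± 0.34 and 0.87 ± 0.24). These calls depended on single libraries and on scaling: 2 of 13 passed without NC 1, without NC 3 or without CCl4 12, and 13 of 13 with library totals. In the fits without those libraries mt-Co1 and mt-Nd4 missed the threshold, at a log2FC of 0.76 to 1.09 and an adjusted p of 0.0587 to 0.116. mt-Atp6 stood at 1888, 13940.0 and 1449.7 CPM with NC and 22172, 21639 and 22127 CPM with CCl4, where NC 2 stood far above NC 1 and 3, and it was not called (log2FC 1.93 ± 0.82, and called at 3.69 without NC 2). Benjamini-Hochberg adjusted p from edgeR's quasi-likelihood test lay between 0.000352 and 0.0274 for the called genes given a log2FC here.

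Ribosome and proteasome lists differed. Cytosolic ribosomal proteins rose in 3 and fell in 5 of 80 tested genes (median log2FC -0.05), although with library totals 19 rose, and without NC 3, 12 fell. Rplp0, of the ribosomal stalk, stood at 442, 373 and 337 CPM with NC and 500.4, 441 and 391 CPM with CCl4 and was not called. Mitochondrial ribosomal proteins fell in 44 of 77, or 15 with library totals, and proteasome subunits in 14 of 38, or 3 with library totals. Ribosome biogenesis genes rose in 13 and fell in 2 of 29 (8 rose without NC 1). Among them Ncl, nucleolin, stood at 221, 238 and 214 CPM with NC and 308, 348 and 383 CPM with CCl4, modestly but separately higher with CCl4 (log2FC 0.63 ± 0.15).

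The proteins that the liver exports to the plasma fell. Of plasma carriers and enzymes 28 of 35 tested fell and none rose. Serpina3k, an abundant serpin with near-identical copies, stood at 15669, 14650.0 and 13624 CPM with NC and 1798, 2835 and 3321 CPM with CCl4. Rbp4, the retinol carrier, stood at 3207, 3569 and 3353 CPM with NC and 549, 879 and 1232 CPM with CCl4. No CCl4 library came near the NC range, and CCl4 11 was lowest in both (log2FC -2.47 ± 0.30 and -1.93 ± 0.30). Among apolipoproteins 14 of 18 fell (9 without NC 1 or with library totals), with Apoa2, of high-density lipoprotein, at a log2FC of -2.44 ± 0.35. Apoa4, which fasting induces in mouse liver, was the 1 that rose (log2FC 1.59 ± 0.20). For the called genes given a log2FC here, the Benjamini-Hochberg adjusted p of edgeR's quasi-likelihood test ran from 0.00036 to 0.00111.

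Clotting and complement genes fell more often than they rose. In coagulation and fibrinolysis 20 fell and 8 rose of 32. Over all genes tested 30.8% were higher and 26.0% lower, so these rises were no more frequent than over all genes. The fibrinogen chain Fgb stood at 7655, 6174 and 4449 CPM with NC and 1619, 1667 and 1791 CPM with CCl4, and its level under CCl4 was even across libraries (log2FC -1.85 ± 0.25). Those that rose included Plau, the urokinase protease, at 1.22, 2.26 and 0.927 CPM with NC and 129, 53.7 and 17 CPM with CCl4 (log2FC 5.52 ± 0.79), and its receptor Plaur at 0.204, 0.141 and 0.109 CPM with NC and 76.9, 28 and 8.6 CPM with CCl4 (log2FC 7.92 ± 1.03), both of which leukocytes and activated stromal cells express. Their CCl4 values differed several-fold, with CCl4 11 highest and CCl4 13 lowest. In complement 21 fell and 11 rose of 35, with rises about as frequent as over all genes. C9, the pore-forming component from hepatocytes, stood at 966, 885 and 678 CPM with NC and 153, 208 and 223 CPM with CCl4, whereas C1qb, made by macrophages, stood at 47.3, 35.5 and 39.2 CPM with NC and 576, 328 and 207 CPM with CCl4. Each pair of groups was separate (log2FC -2.12 ± 0.22 and 3.19 ± 0.37), and C3, which several cell types make, was not called at 6094, 6580.2 and 8886 CPM with NC and 5032, 5599.6 and 6586 CPM with CCl4. The called genes given a log2FC here had Benjamini-Hochberg adjusted p of 0.00019 to 0.000767 in edgeR's quasi-likelihood test.

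The acute phase list had 8 members higher and 10 lower of 27, where 30.8% of all genes tested were higher and 26.0% lower, so the rises were no more frequent than over all genes. Lcn2, lipocalin 2, which binds bacterial siderophores and rises in stressed hepatocytes, stood at 5.98, 5.22 and 3.87 CPM with NC and 142, 170.1 and 196 CPM with CCl4. It was far above NC in each CCl4 library, and highest in CCl4 13 (log2FC 5.08 ± 0.23). Saa3, the serum amyloid of macrophages, stood at 8.42, 4.02 and 5.34 CPM with NC and 86.3, 48.2 and 24.7 CPM with CCl4 (log2FC 3.16 ± 0.49), highest in CCl4 11. Lbp, the hepatocyte protein that carries endotoxin, stood at 122, 87.1 and 75.5 CPM with NC and 25, 22.4 and 26 CPM with CCl4, and fell (log2FC -1.96 ± 0.21). Serpina3n, a classical acute phase serpin, overlapped between groups and was not called (log2FC -0.26 ± 0.23). Called genes given a log2FC here passed edgeR's quasi-likelihood test at Benjamini-Hochberg adjusted p of 1.85e-05 to 0.00105.

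Male-patterned liver genes fell steeply. The major urinary proteins are pheromone carriers that the male mouse liver makes in bulk under pulsatile growth hormone. All 20 tested fell, and their summed level went from 47023, 28863 and 22237 CPM with NC to 265, 433 and 493 CPM with CCl4. Mup7 stood at 12841, 8966 and 5369.5 CPM with NC and 4.03, 10.9 and 13.5 CPM with CCl4, and Mup3 at 11455, 8453 and 8596 CPM with NC and 150.3, 257 and 293 CPM with CCl4. Every CCl4 library lay far below the lowest NC library (log2FC -9.90 ± 0.68 and -5.35 ± 0.36). Mup18 and Mup6 had no count in the CCl4 libraries and were at least 638-fold and 400.0-fold lower, taking 3 counts over the 3 CCl4 libraries as the floor, and with 6 such genes at their bound the median log2FC of the family was -8.39 in place of -9.54. The copies are nearly identical, so the sum is firmer than any single value. Of the wider list of male-biased genes regulated by growth hormone, 21 of 21 fell, among them Selenbp2 at 664, 793 and 451 CPM with NC and 22, 30.7 and 33.9 CPM with CCl4 (log2FC -4.46 ± 0.29). The sex of the mice is not among the sample values used here, and its part in these falls was not tested. The female-biased list had 6 higher and 3 lower of 14. Its summed level nevertheless fell, from 886, 871 and 1118 CPM with NC to 290, 281 and 295 CPM with CCl4. The growth hormone receptor Ghr fell (log2FC -2.32 ± 0.22), as did its downstream product Igf1 at 639.7, 665 and 660.2 CPM with NC and 271, 265 and 283 CPM with CCl4 (log2FC -1.26 ± 0.14) and Bcl6, a repressor of female-biased genes in male liver (log2FC -1.86 ± 0.15). In edgeR's quasi-likelihood test, Benjamini-Hochberg adjusted p ran from 3.53e-05 to 0.000237 over the called genes given a log2FC here.

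Transcription factors of the hepatocyte fell in 23 of 34 tested and rose in 3. Hnf4a, the master regulator of the mature hepatocyte, stood at 789, 602 and 823 CPM with NC and 193, 310.3 and 363 CPM with CCl4 (log2FC -1.35 ± 0.26). Nr1i3, the constitutive androstane receptor that senses drugs, stood at 269, 336 and 389 CPM with NC and 14.3, 34 and 45.3 CPM with CCl4 (log2FC -3.41 ± 0.41). No CCl4 library reached the lowest NC library in either. The 3 that rose were Gata4, Gata6 and Ppard, at log2FC of 1.13 ± 0.15, 1.29 ± 0.29 and 1.48 ± 0.34, which other cells of the liver also express. Wnt signalling genes and readouts, which pattern the central zone, had 12 higher and 10 lower of 31 (7 and 6 in limma on FPKM). Axin2, the general Wnt target, stood at 6.25, 6.27 and 8.78 CPM with NC and 4.97, 8.03 and 8.28 CPM with CCl4, overlapped between groups and was not called. Lgr4, a receptor for the R-spondins that strengthen Wnt, fell (log2FC -1.44 ± 0.23). Benjamini-Hochberg adjusted p from edgeR's quasi-likelihood test lay between 0.000347 and 0.00698 for the called genes given a log2FC here.

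Growth factor receptors and ligands of hepatocytes moved both ways, with 9 higher and 12 lower of 25 tested. Hgf, hepatocyte growth factor from stellate and endothelial cells, stood at 8.62, 5.08 and 8.56 CPM with NC and 60.6, 46.1 and 44.8 CPM with CCl4. Egfr, the epidermal growth factor receptor, which is highest in hepatocytes, stood at 704, 716 and 746 CPM with NC and 90.1, 104 and 109 CPM with CCl4. Hgf was clear of NC upwards and Egfr downwards (log2FC 2.76 ± 0.25 and -2.84 ± 0.16). Hbegf, a ligand of that receptor, stood at 0.611, 1.27 and 0.763 CPM with NC and 33.5, 16.2 and 5.03 CPM with CCl4 (log2FC 4.37 ± 0.72) and was highest in CCl4 11. Vegfa, a vessel growth factor that hepatocytes make, fell at 86.2, 108 and 105 CPM with NC and 39.3, 37.5 and 35.7 CPM with CCl4 (log2FC -1.41 ± 0.15), whereas its receptor Kdr on endothelium rose (log2FC 1.35 ± 0.17). For the called genes given a log2FC here, the Benjamini-Hochberg adjusted p of edgeR's quasi-likelihood test ran from 2.48e-05 to 0.00141.

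The circadian clock list had 9 lower and 4 higher of 20. Dbp, a clock output factor, stood at 145, 150.5 and 121 CPM with NC and 24.9, 19.7 and 15.1 CPM with CCl4. Arntl, the core activator BMAL1, stood at 0.611, 1.55 and 0.709 CPM with NC and 6.28, 5.18 and 4.27 CPM with CCl4. These moved in opposite directions with no overlap (log2FC -2.80 ± 0.22 and 2.46 ± 0.40). Dbp overlaps Sphk2 on the other strand, and whether reads were counted by strand is not given in the sources used here. The hour of collection is not given in the sources used here, so time of day and CCl4 cannot be told apart for these genes. The called genes given a log2FC here had Benjamini-Hochberg adjusted p of 6.02e-05 to 0.00141 in edgeR's quasi-likelihood test.

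**Figure D3:**
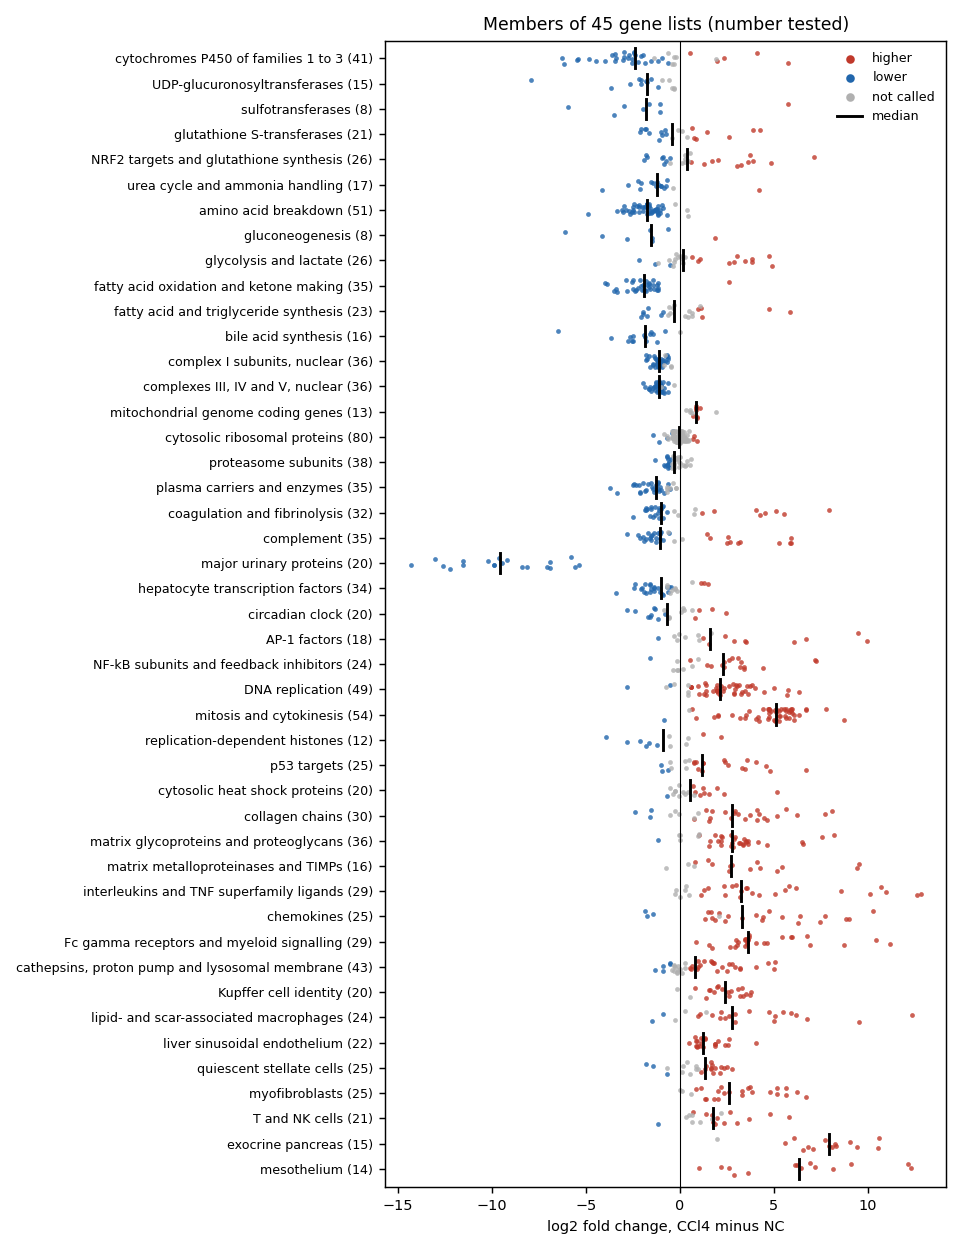
Log2 fold change (x axis, CCl4 minus NC) of each tested member of 45 gene lists (y axis, with the number tested), coloured by call, with the list median as a black bar. Metabolic and plasma protein lists lie left of 0, the major urinary proteins furthest with a median of -9.54, the ribosomal proteins sit at 0 with a median of -0.05, and mitosis, matrix, cytokine and macrophage lists lie to the right.

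Division genes were raised as a programme. Mitosis and cytokinesis genes rose in 52 of 54 tested (median log2FC 5.10) and DNA replication genes in 42 of 49 (median log2FC 2.14). Top2a, the topoisomerase that untangles sister chromatids, stood at 1.36, 2.82 and 2.29 CPM with NC and 104, 130.0 and 153 CPM with CCl4. Ccna2, the cyclin of S and G2 phase, stood at 1.29, 1.06 and 1.25 CPM with NC and 44.2, 65 and 74.3 CPM with CCl4. Mcm5, part of the helicase that opens origins, stood at 2.58, 4.3 and 2.78 CPM with NC and 57.7, 75.9 and 82.7 CPM with CCl4. In each the CCl4 libraries lay far above the NC libraries and within 2-fold of each other, with CCl4 13 highest (log2FC 5.90 ± 0.30, 5.66 ± 0.27 and 4.49 ± 0.26). Foxm1, the transcription factor of the G2 programme, rose from under 1 CPM, at 0.543, 0.564 and 0.545 CPM with NC and 15.9, 20.5 and 27.7 CPM with CCl4 (log2FC 5.26 ± 0.30). Ccnd1, the cyclin that carries growth signals into the cycle, stood at 43.2, 36.2 and 36.2 CPM with NC and 119, 141 and 171 CPM with CCl4 (log2FC 1.90 ± 0.18). The inhibitor Cdkn1a, p21, rose alongside at 1.36, 0.987 and 0.60 CPM with NC and 153, 92.7 and 59.7 CPM with CCl4 (log2FC 6.71 ± 0.47) and was highest in CCl4 11. Ccna2 overlaps Exosc9 on the other strand. Called genes given a log2FC here passed edgeR's quasi-likelihood test at Benjamini-Hochberg adjusted p of 1.85e-05 to 0.000134.

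Exceptions stood out in the division lists. Mcm10, a replication initiation factor, stood at 93, 107 and 101 CPM with NC and 13, 14.2 and 16.2 CPM with CCl4, opposite to its list (log2FC -2.79 ± 0.16), and was one of 2 members lower, with Gins4 (-0.50 ± 0.17). The gene table does not show which transcript those reads come from. In the mitosis list Pttg1, securin, was lower (log2FC -0.82 ± 0.24). The call of Gins4 was lost without NC 1, NC 2, CCl4 11 or CCl4 12, and that of Pttg1 without NC 1, at adjusted p of 0.0592 to 0.129. Replication-dependent histone genes were tested in 12 of 70 listed cases and 6 of them fell, with 2 higher. Their transcripts mostly lack a poly(A) tail and the libraries were made from mRNA, so those seen may be the tailed minority. In edgeR's quasi-likelihood test, Benjamini-Hochberg adjusted p ran from 2.50e-05 to 0.0326 over the called genes given a log2FC here.

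Promoters of these genes are shown because the rises were shared across the lists. The motifs searched, on both strands, were the E2F sites TTTCGCGC and TTTGGCGC, and the cell-cycle homology region CHR, TTTGAA or TTCGAA, which the repressor complex DREAM and its activating counterpart read in late cell-cycle genes. In promoter windows of 300 bases (RefSeq, GRCm38.p6, from 250 bases before the start to 50 after it), an E2F site was found in 25.5% of 51 windows of replication genes, against 0.813% of 32851 windows of all genes and 1.46% of 13024 windows of the genes tested. A CHR was found in 79.6% of 49 windows of mitosis genes and 19.6% of the replication windows, against 19.2% of all windows and 14.2% of those of the genes tested. A match is a description of letters and not a site shown to act. The windows of Mcm5, Mcm6 (log2FC 3.73 ± 0.22), Cdk1 (log2FC 3.46 ± 0.27), Aurka (log2FC 4.67 ± 0.37) and Top2a follow 5′ to 3′ in the direction of transcription, with E2F sites in capitals in the Mcm genes and CHR in capitals in the others. They lie at chr8:75109259-75109558 on the plus strand, chr1:128359656-128359955 on the minus strand, chr10:69352863-69353162 on the minus strand, chr2:172370521-172370820 on the minus strand and chr11:99024140-99024439 on the minus strand.
Mcm5 (E2F): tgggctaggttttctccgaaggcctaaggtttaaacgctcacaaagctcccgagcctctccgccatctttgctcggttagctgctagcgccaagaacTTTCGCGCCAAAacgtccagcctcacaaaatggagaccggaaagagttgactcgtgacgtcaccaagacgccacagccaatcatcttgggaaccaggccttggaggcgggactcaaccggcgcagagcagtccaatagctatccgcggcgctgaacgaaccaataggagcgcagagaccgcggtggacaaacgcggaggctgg
Mcm6 (E2F): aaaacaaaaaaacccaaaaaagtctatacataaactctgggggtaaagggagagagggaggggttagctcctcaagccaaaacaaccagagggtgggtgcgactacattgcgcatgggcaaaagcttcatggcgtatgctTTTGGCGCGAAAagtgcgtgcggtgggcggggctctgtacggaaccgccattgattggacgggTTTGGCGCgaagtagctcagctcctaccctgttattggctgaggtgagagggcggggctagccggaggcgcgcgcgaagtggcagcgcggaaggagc
Cdk1 (CHR): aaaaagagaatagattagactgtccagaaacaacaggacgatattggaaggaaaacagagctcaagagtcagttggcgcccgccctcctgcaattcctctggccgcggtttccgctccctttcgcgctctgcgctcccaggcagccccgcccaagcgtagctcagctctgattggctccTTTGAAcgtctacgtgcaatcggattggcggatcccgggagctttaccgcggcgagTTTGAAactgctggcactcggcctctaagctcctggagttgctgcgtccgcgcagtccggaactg
Aurka (CHR): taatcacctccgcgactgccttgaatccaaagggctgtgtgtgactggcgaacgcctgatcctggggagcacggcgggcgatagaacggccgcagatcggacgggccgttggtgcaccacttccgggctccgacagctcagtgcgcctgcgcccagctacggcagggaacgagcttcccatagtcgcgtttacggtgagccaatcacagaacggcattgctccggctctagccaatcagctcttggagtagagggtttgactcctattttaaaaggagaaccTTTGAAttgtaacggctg
Top2a (CHR): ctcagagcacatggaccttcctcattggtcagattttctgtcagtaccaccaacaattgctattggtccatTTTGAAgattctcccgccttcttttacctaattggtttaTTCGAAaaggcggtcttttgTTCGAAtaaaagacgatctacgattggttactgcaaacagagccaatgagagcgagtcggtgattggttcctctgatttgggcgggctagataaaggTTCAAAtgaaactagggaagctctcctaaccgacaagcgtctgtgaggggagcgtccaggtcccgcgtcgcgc
Counted from the annotated start as +1, the CHR nearest to it begins at -15 in Cdk1, at -23 in Top2a and at 33 in Aurka. The overlapping E2F pair of Mcm5 begins at -153 and -149, and Mcm6 holds a pair at -110 and -106 and a further match at -47. The Cdk1 window also holds the E2F letters TTTCGCGC, left in lower case because only CHR was marked there.

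Stress genes are given by pathway. Of p53 targets 17 of 25 rose and 3 fell, among them Gdf15, a stress hormone of injured tissue, at 8.96, 14.9 and 3.27 CPM with NC and 103, 120.2 and 71.3 CPM with CCl4 (log2FC 3.45 ± 0.50), and Mdm2, the ligase that restrains p53, at 29.1, 25.9 and 25.5 CPM with NC and 93.6, 58.9 and 40 CPM with CCl4 (log2FC 1.26 ± 0.29). Cytosolic heat shock proteins rose in 9 of 20. Hspa1a, the inducible HSP70, stood at 0.951, 0.776 and 4.63 CPM with NC and 135, 66.7 and 39.5 CPM with CCl4, and Hsp90aa1, its partner chaperone, at 102, 78.5 and 129 CPM with NC and 289.7, 285 and 339 CPM with CCl4. Both were separate from NC (log2FC 5.19 ± 0.76 and 1.56 ± 0.21), with Hspa1a uneven in each group and Hsp90aa1 even, and Hspa1a shares reads with a near-identical copy. Endoplasmic reticulum stress genes went 5 up and 6 down of 27 (12 up with library totals and 3 up without NC 1), both below the shares over all genes. Atf3, an early stress factor, rose at 2.38, 2.33 and 1.85 CPM with NC and 421, 176 and 98.8 CPM with CCl4 (log2FC 6.73 ± 0.60), whereas Herpud1, a component of endoplasmic reticulum protein clearance, fell at 379, 433 and 527 CPM with NC and 72.1, 75.3 and 97.6 CPM with CCl4 (log2FC -2.45 ± 0.20). Nox4, a hepatocyte and stellate cell oxidase, fell at 102, 96.6 and 97.2 CPM with NC and 5.12, 9.45 and 11.9 CPM with CCl4 (log2FC -3.48 ± 0.30), while Cybb, the oxidase of phagocytes, rose at 15.8, 11.6 and 13.7 CPM with NC and 504, 264 and 149.9 CPM with CCl4 (log2FC 4.48 ± 0.45). Benjamini-Hochberg adjusted p from edgeR's quasi-likelihood test lay between 7.83e-05 and 0.00704 for the called genes given a log2FC here.

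Matrix genes rose in most families. Collagen chains rose in 22 of 30 tested (median log2FC 2.80). Col3a1, a fibrillar collagen of scars, stood at 24, 15.7 and 18.5 CPM with NC and 1013, 637 and 471 CPM with CCl4. Col4a1, of basement membranes, stood at 25.7, 20.2 and 21.6 CPM with NC and 216, 184 and 182 CPM with CCl4. All CCl4 values were far above NC, widely spread for Col3a1 and even for Col4a1 (log2FC 5.19 ± 0.35 and 3.11 ± 0.17). The 3 chains that fell were Col18a1, a basement membrane collagen that hepatocytes make, at 593, 652 and 671 CPM with NC and 149, 242 and 266 CPM with CCl4 (log2FC -1.54 ± 0.23), Col5a3 (-2.40 ± 0.37) and Col27a1 (-1.57 ± 0.34). Matrix glycoproteins and proteoglycans rose in 30 of 36, and the 1 that fell was Vtn, vitronectin, a plasma protein of hepatocytes (log2FC -1.15 ± 0.33), a call lost at an adjusted p of 0.0521 without NC 2. Fn1, fibronectin, which hepatocytes secrete into plasma and scar cells into matrix, stood at 1092, 1135 and 1282 CPM with NC and 1190.3, 1147 and 1148 CPM with CCl4, groups that overlapped, and was not called (log2FC -0.01 ± 0.16). Genes that fold and cross-link collagen rose in 21 of 25, with Loxl2, a cross-linking oxidase, at 1.29, 0.494 and 0.981 CPM with NC and 22.3, 21.1 and 16.3 CPM with CCl4 (log2FC 4.42 ± 0.33). For the called genes given a log2FC here, the Benjamini-Hochberg adjusted p of edgeR's quasi-likelihood test ran from 2.43e-05 to 0.018.

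Proteases and their inhibitors rose side by side. Of matrix metalloproteinases and TIMPs 13 of 16 tested rose and none fell. Mmp12, the elastase of macrophages, stood at 0.747, 0 and 0.327 CPM with NC and 406, 228 and 168 CPM with CCl4 (log2FC 9.51 ± 0.71). Mmp13, the main interstitial collagenase of rodents, had 2 counts over the NC libraries and 67.5, 25.7 and 7.74 CPM with CCl4, a ratio of 800.0 with a 95% exact binomial interval of 221 to 6610.0 that covers counting error only. Timp2, an inhibitor of these enzymes, stood at 11.8, 8.46 and 7.25 CPM with NC and 192, 108 and 69.6 CPM with CCl4 (log2FC 3.75 ± 0.40). ADAM and ADAMTS proteases rose in 22 of 28, with Adam8, of leukocytes, at 0.611, 0.776 and 0.545 CPM with NC and 139, 71.3 and 42 CPM with CCl4 (log2FC 7.02 ± 0.54). In all of these CCl4 11 was highest and CCl4 13 lowest, and in none did the groups overlap. The called genes given a log2FC here had Benjamini-Hochberg adjusted p of 5.78e-05 to 0.000223 in edgeR's quasi-likelihood test.

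Transcripts of immediate early genes were high in every CCl4 library. AP-1 factors rose in 10 of 18 tested, and early growth response, KLF and MYC genes in 19 of 26. Fos stood at 4.69, 9.87 and 1.2 CPM with NC and 482, 323 and 251 CPM with CCl4, and Jun, its partner in AP-1, at 24.9, 71.4 and 19.4 CPM with NC and 579, 418 and 324 CPM with CCl4. The lowest CCl4 library was above the highest NC library, although NC 2 stood above NC 1 and NC 3 in both (log2FC 6.08 ± 0.71 and 3.52 ± 0.52). Klf6, a zinc finger factor induced in injury, stood at 8.56, 9.31 and 7.41 CPM with NC and 592, 264 and 123 CPM with CCl4 (log2FC 5.28 ± 0.58). Klf15, a fasting-related factor of hepatocytes, fell at 164, 188 and 248 CPM with NC and 17.2, 34 and 41.6 CPM with CCl4 (log2FC -2.69 ± 0.34). These genes respond to handling and to the time between death and freezing, neither of which is given in the sources used here. Called genes given a log2FC here passed edgeR's quasi-likelihood test at Benjamini-Hochberg adjusted p of 0.000248 to 0.000884.

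Inflammatory signals rose steeply and unevenly. NF-kB subunits and feedback inhibitors rose in 16 of 24 tested, interleukins and TNF superfamily ligands in 23 of 29, and chemokines in 21 of 25. Without CCl4 11 these counts were 16, 22 and 18. Tnfaip3, the A20 inhibitor that NF-kB induces, stood at 1.63, 2.33 and 4.36 CPM with NC and 854, 337 and 73.4 CPM with CCl4. Nfkbia, the first such inhibitor, stood at 37.7, 42.7 and 48.2 CPM with NC and 509, 217 and 71.7 CPM with CCl4. Each was above NC in every CCl4 library, with CCl4 11 several-fold above CCl4 13 (log2FC 7.23 ± 0.97 and 2.63 ± 0.61, the latter 1.75 without CCl4 11). Il1a, an alarm cytokine, stood at 5.91, 5.57 and 5.4 CPM with NC and 561, 207 and 36.1 CPM with CCl4 (log2FC 5.57 ± 0.92). Il6 and Osm, which signal through gp130 to hepatocytes, had no count under NC and stood at 30.4, 11.8 and 0.92 CPM and 14.7, 6.96 and 2.54 CPM with CCl4. They were at least 228-fold and 128-fold higher, against a floor of 3 counts summed over the NC libraries. In edgeR's quasi-likelihood test, Benjamini-Hochberg adjusted p ran from 0.000573 to 0.00697 over the called genes given a log2FC here.

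Chemokines that call neutrophils and monocytes were among the steepest rises. Cxcl1 stood at 18.4, 14.5 and 3.54 CPM with NC and 506, 210.3 and 71.6 CPM with CCl4, and Cxcl2, its close relative on the neutrophil receptor, at 0.136, 0.212 and 0.164 CPM with NC and 457, 173 and 33.2 CPM with CCl4. Ccl2, which calls monocytes, stood at 0.475, 0.212 and 0.382 CPM with NC and 133, 47.2 and 10.9 CPM with CCl4. All 3 were separate from NC in every library and uneven among the CCl4 libraries (log2FC 4.44 ± 0.84, 10.29 ± 1.22 and 7.44 ± 1.05). The 3 chemokines that fell were Cxcl12, a stromal chemokine that retains stem cells and lymphocytes, at 331, 285 and 337 CPM with NC and 74.5, 95.3 and 185 CPM with CCl4 (log2FC -1.43 ± 0.32), Ccl25 (-1.73 ± 0.27) and Ccl27a (-1.87 ± 0.33). Of interleukin, interferon and TNF receptors, 32 rose and 5 fell of 50 tested. Among those that fell were Il1rap and Lifr, through which hepatocytes hear IL-1 and LIF (log2FC -1.91 ± 0.20 and -2.03 ± 0.18). Interferon-stimulated genes rose in 31 of 42 and none fell, with Rsad2, viperin, at 6.45, 9.66 and 5.07 CPM with NC and 417, 158 and 24.5 CPM with CCl4 (log2FC 4.83 ± 0.93). Benjamini-Hochberg adjusted p from edgeR's quasi-likelihood test lay between 0.000116 and 0.00634 for the called genes given a log2FC here.

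Promoters of 3 of these genes are shown for the NF-kB motif. The letters searched, on both strands, were GGACTTTCC and GGAATTTCC, which are part of the wider range of NF-kB sites. They were found in 24% of 25 windows of the NF-kB feedback list, 11.4% of 35 chemokine windows and 6.02% of 83 windows of interleukins and TNF ligands, against 0.658% of 32851 windows of all genes and 0.837% of 13024 windows of the genes tested. The AP-1 motif TGACTCA was found in 17.1% of the chemokine windows and 15.7% of the interleukin windows, against 5.2% of all and 4.01% of those of the genes tested, but also in 15.2% of 33 windows of plasma carriers and enzymes, a list in which 28 members fell and none rose. The windows lie at chr5:90890995-90891294 on the plus strand, chr5:90903649-90903948 on the plus strand and chr12:55492598-55492897 on the minus strand, and capitals mark the NF-kB letters.
Cxcl1 (NF-kB): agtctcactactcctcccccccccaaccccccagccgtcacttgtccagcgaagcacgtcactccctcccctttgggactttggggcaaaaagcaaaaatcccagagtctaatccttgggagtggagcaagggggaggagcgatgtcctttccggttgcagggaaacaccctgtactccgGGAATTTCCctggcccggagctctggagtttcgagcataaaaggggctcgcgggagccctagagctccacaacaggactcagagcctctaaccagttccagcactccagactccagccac
Cxcl2 (NF-kB): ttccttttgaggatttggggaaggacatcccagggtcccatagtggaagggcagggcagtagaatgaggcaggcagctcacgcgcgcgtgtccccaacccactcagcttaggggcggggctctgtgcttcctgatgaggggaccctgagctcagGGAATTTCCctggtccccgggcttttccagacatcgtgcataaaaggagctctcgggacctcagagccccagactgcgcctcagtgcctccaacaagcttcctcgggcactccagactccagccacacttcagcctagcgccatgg
Nfkbia (NF-kB): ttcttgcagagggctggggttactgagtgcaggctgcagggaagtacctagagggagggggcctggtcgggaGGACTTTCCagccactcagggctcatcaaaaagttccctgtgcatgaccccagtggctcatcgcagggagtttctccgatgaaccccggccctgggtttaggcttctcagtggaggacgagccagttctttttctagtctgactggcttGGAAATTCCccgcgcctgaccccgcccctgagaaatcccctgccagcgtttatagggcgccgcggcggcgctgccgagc
Counted in the same way, the letters begin at -70 in Cxcl1, at -96 in Cxcl2 and at -178 and -29 in Nfkbia.

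Macrophage genes rose across identities. Kupffer cell identity genes rose in 18 of 20 tested, monocyte and general macrophage genes in 23 of 24, and genes of lipid- and scar-associated macrophages in 19 of 24. The summed level of the monocyte and macrophage list went from 515, 528 and 536 CPM with NC to 6177, 3663 and 2486 CPM with CCl4. Cd5l, a secreted survival factor of Kupffer cells, stood at 136, 102 and 126 CPM with NC and 1915, 1149.7 and 704 CPM with CCl4, and the Kupffer lectin Clec4f at 102, 79.5 and 90.4 CPM with NC and 384, 254 and 179 CPM with CCl4. Trem2, a lipid receptor of scar-associated macrophages, stood at 0.204, 1.41 and 0.545 CPM with NC and 129, 64.8 and 38.3 CPM with CCl4. No library of one group reached the other for these genes, and CCl4 11 was highest (log2FC 3.37 ± 0.37, 1.58 ± 0.28 and 6.76 ± 0.69). Chil3, a chitinase-like protein of recruited and alternatively activated cells, had 2 counts over the NC libraries and 21.7, 13.4 and 10.1 CPM with CCl4, a ratio of 357 with a 95% exact binomial interval of 98.5 to 2950.0 that covers counting error only. The 2 members of the scar-associated list that fell were Apoe and Plin2 (log2FC -1.48 ± 0.22 and -0.89 ± 0.24), which hepatocytes also express in quantity. The call of Plin2 was lost without CCl4 12, at an adjusted p of 0.0516. For the called genes given a log2FC here, the Benjamini-Hochberg adjusted p of edgeR's quasi-likelihood test ran from 0.000186 to 0.0127.

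Genes of myeloid signalling and of the lysosome rose as well. Fc gamma receptors and myeloid signalling genes rose in 29 of 29 tested. Clec7a, the beta-glucan receptor dectin-1, stood at 6.72, 5.01 and 4.09 CPM with NC and 519.8, 296 and 186 CPM with CCl4 (log2FC 5.99 ± 0.45). Among cathepsins, proton pump and lysosomal membrane genes 25 of 43 rose. Ctsd, a lysosomal aspartic protease, stood at 393, 399 and 394 CPM with NC and 4476, 2758 and 1918 CPM with CCl4, and Psap, the precursor of saposins, at 411, 471 and 487 CPM with NC and 4613, 2732 and 1960.4 CPM with CCl4. These made both genes part of the 10 largest gains in CPM (log2FC 2.95 ± 0.32 and 2.76 ± 0.33), whereas the membrane protein Lamp1 stood at 784, 819 and 765 CPM with NC and 915, 753 and 682 CPM with CCl4, overlapped between groups and was not called (log2FC -0.01 ± 0.17). Receptors and bridging proteins for the uptake of dead cells rose in 19 of 24, with Axl, a receptor tyrosine kinase of such uptake, at 20.2, 15.6 and 26.8 CPM with NC and 333, 197 and 136 CPM with CCl4 (log2FC 3.41 ± 0.37). Antigen presentation genes rose in 20 of 28. The co-stimulatory receptor Cd86 rose (log2FC 2.98 ± 0.55), while the widely expressed class I gene H2-K1 fell at 963, 1088 and 969.5 CPM with NC and 630.3, 581 and 551 CPM with CCl4 (log2FC -0.78 ± 0.15; its relatives share reads). The called genes given a log2FC here had Benjamini-Hochberg adjusted p of 5.82e-05 to 0.0034 in edgeR's quasi-likelihood test.

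Neutrophil and lymphocyte genes rose from low levels. Of the neutrophil list 12 of 16 tested rose. Retnlg, a neutrophil resistin, stood at 0.272, 0.0705 and 0.327 CPM with NC and 10.2, 4.72 and 3.08 CPM with CCl4 (log2FC 4.67 ± 0.65). The 2 that fell, Wfdc21 at 329, 285 and 184 CPM with NC and 28.4, 54.4 and 59.3 CPM with CCl4 and G0s2 at 198, 299.6 and 119.5 CPM with NC and 12.1, 16.8 and 18.7 CPM with CCl4, were abundant under NC and are also expressed by hepatocytes (log2FC -2.49 ± 0.33 and -3.70 ± 0.36). B and plasma cell genes rose in 13 of 17, with the immunoglobulin chain Ighm at 5.09, 10.6 and 4.8 CPM with NC and 36.3, 28.3 and 30.2 CPM with CCl4 (log2FC 2.22 ± 0.32). T and NK cell genes rose in 12 of 21, but in 7 without NC 3. Cd3e, a defining marker of T cells and not of NK cells, was too low to test at 0.272, 0.423 and 0 CPM with NC and 1.05, 0.457 and 0.216 CPM with CCl4. Its levels overlapped. Called genes given a log2FC here passed edgeR's quasi-likelihood test at Benjamini-Hochberg adjusted p of 0.000153 to 0.000758.

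Endothelial genes rose in both lists tested. Sinusoidal endothelial genes rose in 22 of 22 tested. Stab2, a scavenger receptor of hyaluronan, stood at 53.2, 50.4 and 78.8 CPM with NC and 238, 217 and 219 CPM with CCl4, and Gpr182, a decoy chemokine receptor, at 27, 25 and 29.3 CPM with NC and 59.5, 60.3 and 60.5 CPM with CCl4. The CCl4 values of each lay close together and above each NC value (log2FC 1.89 ± 0.20 and 1.15 ± 0.14). Capillary and adhesion genes rose in 20 of 21. Cd34, a marker of capillary endothelium, stood at 1.56, 1.48 and 1.91 CPM with NC and 67.3, 40.5 and 25.5 CPM with CCl4 (log2FC 4.74 ± 0.40), and Vcam1, the adhesion molecule for leukocytes, at 16.5, 8.95 and 18.1 CPM with NC and 634, 314 and 148 CPM with CCl4 (log2FC 4.65 ± 0.57). Both were highest in CCl4 11 and lowest in CCl4 13, more than 2-fold apart. Sele, E-selectin, had 2 counts over the NC libraries and 77.2, 24.8 and 1.57 CPM with CCl4, a ratio of 822 with a 95% exact binomial interval of 227 to 6790.0 that covers counting error only. In edgeR's quasi-likelihood test, Benjamini-Hochberg adjusted p ran from 8.82e-05 to 0.000381 over the called genes given a log2FC here.

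Most stellate cell genes rose on both lists. The quiescence list rose in 14 of 25 tested and fell in 3, among them Cxcl12 (log2FC -1.43 ± 0.32). The myofibroblast list, which holds Col3a1, rose in 22 of 25. Lrat, which stores vitamin A in stellate cells, stood at 17.9, 6.35 and 14.8 CPM with NC and 34.1, 42.7 and 50 CPM with CCl4, and Reln, reelin, at 37.1, 15.2 and 37.6 CPM with NC and 118, 184 and 214 CPM with CCl4. For these CCl4 13 was highest and NC 2 lowest, with no overlap (log2FC 1.70 ± 0.36 and 2.52 ± 0.38). Tgfb1, the main fibrogenic cytokine and on neither list, stood at 6.99, 5.08 and 5.78 CPM with NC and 75.5, 48.9 and 33.9 CPM with CCl4 (log2FC 3.15 ± 0.32). Bile duct markers had 6 higher and 2 lower of 14. Epcam, an adhesion molecule of duct cells, was among the lower. It stood at 1.9, 1.69 and 2.62 CPM with NC and 1.36, 0.914 and 0.866 CPM with CCl4 (log2FC -0.98 ± 0.37), and its call did not hold with every library left out. Krt19, a duct keratin that the mesothelium also carries, stood at 0.475, 2.47 and 1.04 CPM with NC and 16.8, 7.26 and 4.76 CPM with CCl4 (log2FC 2.86 ± 0.65), and Pkhd1, fibrocystin of the duct cilium, stood at 6.59, 8.11 and 11.9 CPM with NC and 4.45, 7.57 and 8.22 CPM with CCl4 and was not called. Benjamini-Hochberg adjusted p from edgeR's quasi-likelihood test lay between 0.000175 and 0.0495 for the called genes given a log2FC here.

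The cytoskeleton changed in 2 patterns. Tubulins rose in 10 of 13 tested. Tubb5, a tubulin of proliferating cells, stood at 51, 44.3 and 51.1 CPM with NC and 228, 253 and 254 CPM with CCl4, and Tubb6 at 4.89, 1.41 and 5.34 CPM with NC and 114, 104 and 107 CPM with CCl4. The CCl4 libraries lay almost on one level for each (log2FC 2.33 ± 0.14 and 4.79 ± 0.43). Annexins, S100 proteins, vimentin and cytoskeletal linkers rose in 26 of 33, with Anxa2, which couples membranes to actin, at 11.8, 9.59 and 8.67 CPM with NC and 267, 178 and 138 CPM with CCl4 (log2FC 4.28 ± 0.29) and CCl4 11 highest. The hepatocyte keratins Krt8 and Krt18 rose together, at 196, 206 and 198 CPM with NC and 433, 418 and 407 CPM with CCl4 and 179, 156 and 111 CPM with NC and 349, 321 and 332 CPM with CCl4 (log2FC 1.07 ± 0.13 and 1.17 ± 0.20). The hepatocyte gap junction gene Gjb1 fell (log2FC -1.70 ± 0.23), while Gja1, connexin 43 of stromal cells, rose (log2FC 3.78 ± 0.63). Afp, the fetal liver plasma protein, rose at 1.43, 1.34 and 0.927 CPM with NC and 15, 23.9 and 27.8 CPM with CCl4 (log2FC 4.18 ± 0.32). For the called genes given a log2FC here, the Benjamini-Hochberg adjusted p of edgeR's quasi-likelihood test ran from 3.10e-05 to 0.00157.

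Lists of tissues other than liver parenchyma had members that rose in the CCl4 libraries. Of 36 listed exocrine pancreas genes, 15 were tested and 14 rose (25 without CCl4 13, and 25 with no filter on low counts). Cel, the bile salt-stimulated lipase of pancreatic juice, stood at 0, 0 and 0.218 CPM with NC and 142, 43.1 and 1.57 CPM with CCl4, and Pnlip, pancreatic lipase, at 0, 0 and 0.382 CPM with NC and 178, 59.5 and 2.16 CPM with CCl4. CCl4 11 and 12 were high, while CCl4 13, at 1.57 and 2.16 CPM, stood close to the highest NC library (log2FC 9.42 ± 1.89 and 9.03 ± 1.81). The summed level of the list went from 14.3, 17.8 and 21.9 CPM with NC to 2213, 709 and 23.7 CPM with CCl4. Mesothelial genes rose in 14 of 14, with Gpm6a, a membrane glycoprotein, at 2.24, 0.987 and 1.14 CPM with NC and 27.7, 14.2 and 11.3 CPM with CCl4 (log2FC 3.60 ± 0.46). That list shares Krt19 with the bile duct list and a member with the quiescent stellate list. Its transcripts were present under NC too, with a summed level of 180, 73 and 95 CPM, against 826, 576 and 506 CPM with CCl4. The adipocyte list had 2 higher and 4 lower of 7 tested, but its defining markers were at or near 0: Adipoq stood at 0, 0.141 and 0.109 CPM with NC and 0, 0 and 0 CPM with CCl4, and Lep at 0 in all 6 libraries. The levels of the pancreas list followed the same order of the CCl4 libraries as those of the cytokine, chemokine and NF-kB lists, and their part in those results was not tested. The called genes given a log2FC here had Benjamini-Hochberg adjusted p of 0.000428 to 0.00371 in edgeR's quasi-likelihood test.

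The CCl4 libraries differed in some gene lists and hardly in others. Against the NC mean, the mean log2 level of the interleukin and TNF list stood at 3.26, 2.58 and 1.49 in CCl4 11, 12 and 13, that of the NF-kB list at 2.53, 1.73 and 0.79 and that of the pancreas list at 7.03, 5.45 and 0.99. Cytochromes P450 of families 1 to 3 stood at -2.15, -1.70 and -1.56 and plasma carriers at -1.92, -1.34 and -1.11, furthest from NC in CCl4 11. In contrast, mitosis genes stood at 3.64, 3.87 and 4.05, tubulins at 1.91, 1.91 and 1.90, sinusoidal endothelial genes at 1.68, 1.45 and 1.33 and quiescent stellate genes at 0.88, 0.97 and 1.11. The library with the steepest inflammatory and hepatocyte changes was thus not the one with the highest mitosis level. With 3 libraries these are descriptions and carry no test.

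**Figure D4:**
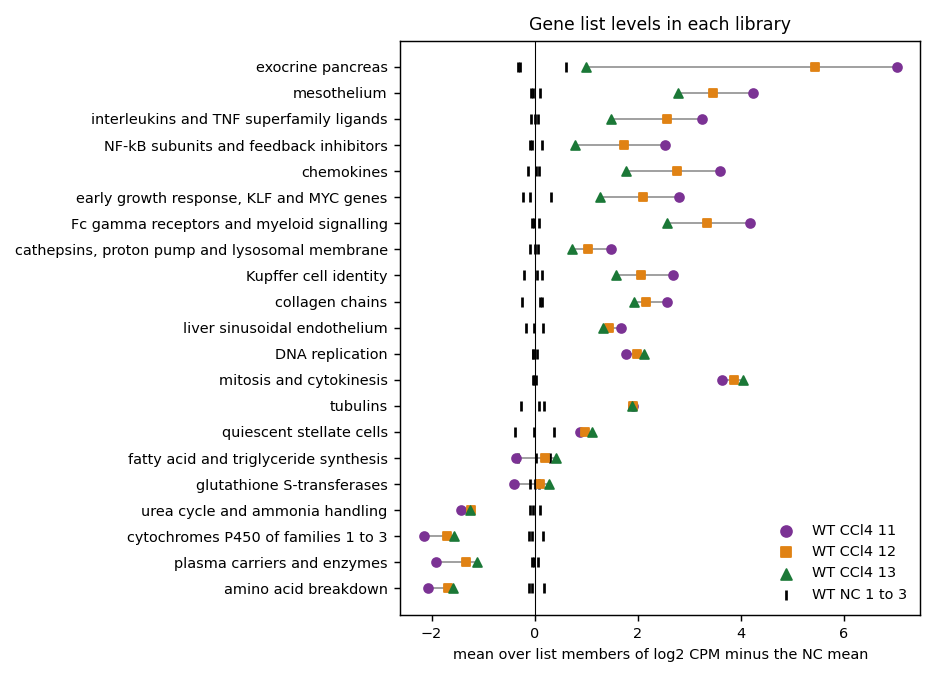
Mean over the tested members of each of 21 gene lists of log2 CPM minus the NC mean (x axis), for CCl4 11 (circle), CCl4 12 (square), CCl4 13 (triangle) and the 3 NC libraries (black ticks near 0). The CCl4 libraries lie far apart for exocrine pancreas (7.03, 5.45 and 0.99) and interleukins (3.26, 2.58 and 1.49) and on top of each other for tubulins (1.91, 1.91 and 1.90).

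**Figure D5:**
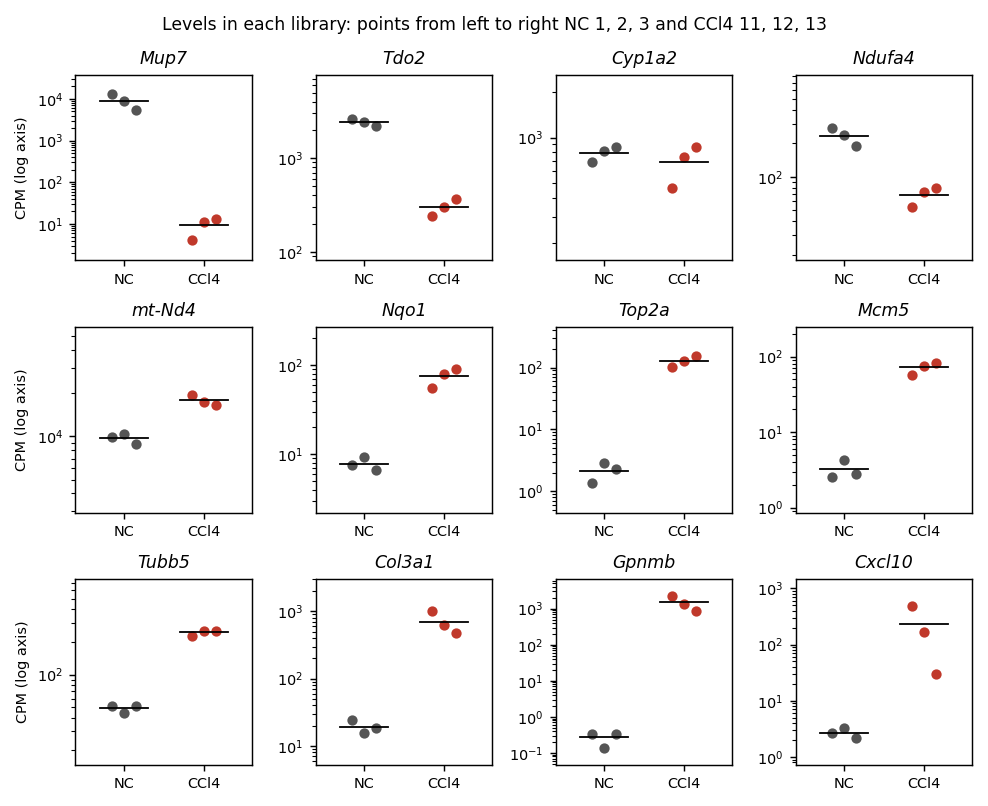
CPM of 12 genes (y axis, log axis, scaled per panel) in the 3 NC libraries (grey) and the 3 CCl4 libraries (red), with each group's mean as a line. The groups are separate for each gene except Cyp1a2, and the CCl4 points are close for Tubb5 and Top2a and wide for Cxcl10.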

How the data were processed

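The authors deposited 1 gene table for the series, with whole-number read counts and FPKM per gene and library. Per the submitters' processing notes, HISAT2 2.0.4, StringTie 1.3.0 and the builds mm10 and GRCm38.p4 were used. The step that produced the counts, and its strand setting, are unnamed in those notes and in the labels. Per the labels' protocols, total RNA was separated into mRNA before library construction. The deposited FPKM were proportional to count over library total within 0.002% for 9380 genes, so they carry no TMM scaling. In the deposited file 27 symbols had been turned into dates and were restored through their gene IDs. Promoter sequences and their coordinates come from RefSeq on GRCm38.p6, matched by symbol (41 of 49 replication and 45 of 54 mitosis genes), and gene overlaps from GENCODE.

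Counts of the 6 WT libraries were fitted together with edgeR 4.0.16 in R 4.3.3 (TMM factors, filterByExpr, quasi-likelihood test, Benjamini-Hochberg threshold 0.05), with no covariate. The fit was tested on simulated counts. The labels do not say that each library came from a separate animal, and if it did not, the p-values reflect technical spread. Replicate libraries of a group differed by more than counting noise, with a chi-square per degree of freedom of 23.6 to 128. A rule gave 637 genes that could be named: role-based members of 106 gene lists, and the 10 largest gains and losses in CPM. It also took the 12 largest stable rises and falls, up to 3 abundant called members per list, and the 8 genes with the widest spread under CCl4. Only part of these genes are named here, with none of those 8, beside some further list members. For that further choice no rule was set. The lists, their members and the promoters shown were chosen with earlier results of these data known. Intervals and floors cover counting error only. Alternatives were DESeq2 1.42.0, its size factors, library totals, no filter on low counts, limma 3.58.1 on log2(FPKM + 1) or log2(FPKM + 0.1) of genes at 1 FPKM or more in 3 libraries, all 9 libraries, no mitochondrial genes, and each library left out.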

Additional observations from a re-analysis of the deposited data

How the results depend on the processing

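The count of lower genes, 3578 with TMM factors, was 2251 with library totals, 2084 with limma on log2(FPKM + 1) and 2085 on log2(FPKM + 0.1), all scaled to library totals, where the limma fits also changed the test and the filter. Over DESeq2, DESeq2 size factors, no filter on low counts, all 9 libraries and no mitochondrial genes, 4166 to 4464 genes were higher and 3527 to 3726 lower. With each library left out in turn, 3657 to 4392 were higher and 2817 to 3586 lower, fewest without CCl4 12, and the mitochondrial share differed by 14.4 to 15.9 percentage points. Of 187 genes named and tested, Epcam not among them, 173 were called, and 165 kept their call and direction in every alternative that tested them. Uncalled genes near 0 changed sign. With library totals the log2FC became 0.30 for Abcc2, 0.32 for Axin2, 0.13 for Cyp1a2, 0.32 for Fn1, 0.32 for Lamp1 and 0.08 for Serpina3n. With limma on either FPKM scale it became 0.30 for Abcc2, 0.02 for C3, 0.09 for Cyp1a2, 0.32 for Fn1, 0.31 for Lamp1 and 0.10 for Serpina3n. Without single libraries it ranged from -0.20 to 0.15 for Abcc2, -0.14 to 0.20 for Axin2, -0.40 to 0.03 for Cyp1a2, -0.08 to 0.02 for Fn1 and -0.14 to 0.07 for Lamp1. The cause was not tested. On FPKM, lists of low genes lost calls, with 3 or 4 exocrine pancreas, 4 T and NK cell, 7 B and plasma cell, 7 neutrophil and 12 ADAM genes higher. No paired analysis was possible because the NC libraries are numbered 1 to 3 and the CCl4 libraries 11 to 13, so the groups share no replicate number. Genes under a few CPM, and changes of under 2-fold, are the least certain at this depth and n = 3.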

Other observations

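Transport genes moved both ways. Of amino acid transporters 13 rose and 5 fell of 26 tested. Slc38a4, a hepatocyte carrier of neutral amino acids, stood at 1539, 1740.4 and 1598 CPM with NC and 205, 247 and 295 CPM with CCl4 (log2FC -2.71 ± 0.20). Slc7a2, which takes up arginine, fell too (log2FC -2.63 ± 0.17). Slc1a5, a glutamine carrier of dividing and immune cells, stood at 3.46, 2.82 and 3.98 CPM with NC and 29.9, 17.5 and 11.8 CPM with CCl4 (log2FC 2.52 ± 0.36), and Slc3a2, the shared heavy chain of several exchangers, rose (log2FC 1.51 ± 0.34). In all of these the groups were separate. Mitochondrial carriers fell in 22 of 42 and rose in 4, with Slc25a47, a liver-specific carrier, at 831, 1001 and 736 CPM with NC and 62.8, 82.8 and 77.3 CPM with CCl4 (log2FC -3.53 ± 0.20). Called genes given a log2FC here passed edgeR's quasi-likelihood test at Benjamini-Hochberg adjusted p of 2.50e-05 to 0.00596.

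Haem synthesis and iron genes had 2 higher and 12 lower of 26 tested (1 higher without NC 2). Tfrc, the receptor that brings iron into dividing cells, stood at 25.3, 21 and 31.2 CPM with NC and 67.5, 80 and 101 CPM with CCl4, clear of NC and highest in CCl4 13 (log2FC 1.68 ± 0.21). Hamp, hepcidin, the hormone that blocks iron export, stood at 325, 502 and 370.2 CPM with NC and 145, 199 and 224 CPM with CCl4 (log2FC -1.08 ± 0.23), and Alas1, the first step of haem synthesis, at 419, 412 and 494 CPM with NC and 187, 175 and 154 CPM with CCl4 (log2FC -1.36 ± 0.16). Both fell with no overlap. Claudins, connexins and aquaporins had 7 higher and 8 lower of 20 (11 higher without NC 2 and 12 without CCl4 13). Aqp9, the glycerol channel of hepatocytes, fell (log2FC -2.17 ± 0.24), while Aqp1, the water channel of endothelium and bile ducts, rose (log2FC 1.73 ± 0.18). In edgeR's quasi-likelihood test, Benjamini-Hochberg adjusted p ran from 0.000199 to 0.0049 over the called genes given a log2FC here.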
